A study of Homo sapiens with 14 samples.

Results

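Chromatin accessibility was followed at 8 genes of extracellular proteases, MMP7, MMP10, MMP1, MMP3, MMP13, MMP2, MMP14 and ADAM12, across the breast cancer line SUM149PT and 6 clones of it. Matrix metalloproteinases are zinc enzymes that are secreted or held in the cell membrane and that cut collagens, proteoglycans and other proteins of the extracellular matrix. ADAM12 belongs to the related family of membrane proteins with a disintegrin and a metalloproteinase domain, which cut growth factors and adhesion proteins from cell surfaces. Both families are known in breast tumours for matrix turnover and invasion, and several MMP genes that lie side by side on chromosome 11 are known targets of AP-1 and ETS transcription factors.

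The regions were the rows of the deposited count table (hg38) that start in 4 windows, of 480 kb on chromosome 11, 440 kb on chromosome 10, 40 kb on chromosome 14 and 70 kb on chromosome 16. The first and last of them start at 102530551 and 102950588 on chromosome 11. They start at 126013525 and 126397668 on chromosome 10, at 22824912 and 22852917 on chromosome 14 and at 55465133 and 55508917 on chromosome 16. These windows held 50 of the 65774 regions of the series, 19 in the MMP cluster on chromosome 11, 19 at ADAM12, 6 at MMP14 and 6 at MMP2. In the cluster, 3 regions were nearest to MMP7, 1 to MMP10, 1 to MMP1, 4 to MMP3 and 2 to MMP13. The other 8 cluster regions were nearest to genes that do not belong to the 8, namely MMP20 (6 regions), MMP8 (1) and MMP12 (1). Of the regions in the other windows, 1 in the MMP14 window overlapped MRPL52 and 1 in the MMP2 window overlapped LPCAT2. All 50 regions passed the filter on low counts and were tested.

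The groups were the clones M1, M2, EM1, EM2, EM3 and E and the line they came from, named Parental, with 2 ATAC-seq libraries each and 14 libraries in all. In ATAC-seq a transposase cuts and tags open chromatin, so more fragments come from accessible DNA. SUM149PT is an established human line of inflammatory breast cancer without oestrogen and progesterone receptors, per the labels. No group was treated, and the labels do not spell out the letters of the clones. Each clone is a single line, so a difference of a clone cannot be told apart from a trait of the cell it grew from. Nothing in the labels tells whether both libraries of a clone were grown as separate cultures, and the p-values cover the spread from library to library alone.

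Library totals ran from 8138944 to 16786823 counts. Log2 values of the libraries of one group correlated at 0.873 in E and at 0.948 to 0.97 in the other groups. The first library of E held some signal that otherwise marked M2. Over 12 regions with no count in any library of M1, the EM clones or Parental, E replicate 1 reached 21.1% of the mean M2 level, against 1.77% in E replicate 2. Tests that involve E versus Parental are given with and without E replicate 1. The most accessible region within 1 kb of an end of CDH1, the epithelial cadherin, averaged 2.52 CPM in M1, 0.496 in M2, 31.3 in EM1, 21.5 in EM2, 27.2 in EM3, 35.8 in E and 39.9 in Parental. That of the mesenchymal filament gene VIM averaged 53.2, 65.3, 31.7, 47.0, 36.8, 15.6 and 21.1 CPM in the same order. Of 7 regions at 6 epithelial marker genes, 6 were lower and none higher in M1 versus Parental, and 6 were lower and 1 higher in M2. The higher one, at the keratin gene KRT8, averaged 39.9 CPM in M2 and 27.3 CPM in Parental. Of 7 regions at 4 mesenchymal genes, 6 were higher in M1 and 5 in M2, and none was lower. No region lay within 1 kb of an end of ESR1 or PGR, of the blood cell genes PTPRC and ITGAM, or of the endothelial genes PECAM1, CDH5 and VWF. The blood cell genes CD3E and CD14 had 1 each. Group means ran from 18 to 49.2 CPM at CD3E and from 18.6 to 45.2 CPM at CD14. In these bulk samples, fewer cells with an open region and less opening per cell cannot be told apart.

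Values are CPM, counts scaled to library size by TMM, for replicate 1 and then replicate 2, and means are ± SD with n = 2. Log2 changes are ± SE from edgeR's quasi-likelihood F test, and a region was called where its adjusted p, over 65771 regions, was under 0.05.

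Promoter sequences help to place the regions at MMP7 and MMP14, which overlap the starts of these genes, and the region at MMP10, which does not. The RefSeq promoter table (GRCh38.p14) held 4 of the 8 genes, MMP7, MMP10, MMP14 and ADAM12. The 250 bases before the start are printed for the MMP genes, 5′ to 3′ on the strand of the gene, with capitals for any match to AP-1 (TGANTCA), to ETS (AGGAAG, on either strand) or to the TATA box (TATAAA, on the strand of the gene). RUNX (AACCACA) and TEAD (CATTCC) were also searched on both strands, and the search covered 300 bases, from 250 before to 50 after the start.
MMP7 (chromosome 11, minus strand): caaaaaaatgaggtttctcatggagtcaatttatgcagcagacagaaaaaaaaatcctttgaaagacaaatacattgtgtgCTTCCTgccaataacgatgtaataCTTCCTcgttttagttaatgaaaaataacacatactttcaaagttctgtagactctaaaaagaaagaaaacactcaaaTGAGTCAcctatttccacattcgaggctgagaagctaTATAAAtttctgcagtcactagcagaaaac
MMP10 (chromosome 11, minus strand): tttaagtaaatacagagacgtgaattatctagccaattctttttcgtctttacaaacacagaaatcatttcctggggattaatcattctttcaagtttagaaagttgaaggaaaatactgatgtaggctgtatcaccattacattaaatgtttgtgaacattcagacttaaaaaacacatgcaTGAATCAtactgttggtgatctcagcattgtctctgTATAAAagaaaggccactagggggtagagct
MMP14 (chromosome 14, plus strand): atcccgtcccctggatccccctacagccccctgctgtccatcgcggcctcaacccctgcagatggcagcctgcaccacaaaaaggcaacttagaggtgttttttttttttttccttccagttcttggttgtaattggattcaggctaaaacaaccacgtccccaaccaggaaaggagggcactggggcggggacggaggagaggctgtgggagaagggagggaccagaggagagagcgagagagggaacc
The MMP7 and MMP10 promoters each held 1 AP-1 match that began 67 bases before the start and 1 TATA match, which began 30 bases before the start in MMP7 and 31 bases before it in MMP10. Their AP-1 letters differ, with TGAGTCA in MMP7 and TGAATCA in MMP10. MMP7 also held 2 ETS matches on the other strand. The MMP14 window held no match to the 5 motifs, and the ADAM12 window held 1 ETS match that began 33 bases after the start. Of all 35116 promoters in the table, 7.71% held AP-1, 33.6% ETS, 4.27% RUNX, 14% TEAD and 7.33% TATA letters. The GC content was 35.7% in MMP7, 36.3% in MMP10, 55.0% in MMP14 and 71.0% in ADAM12, against a median of 58.7% over all promoters. The ADAM12 promoter held 33 CpG sites, against 10 in MMP14, 4 in MMP7, 2 in MMP10 and a median of 14. A match describes letters and not a bound factor.

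Most of the 50 regions differed among the groups. In the test of any difference among the 7 groups, 42 were called, against 78.6% of all regions tested. In M1 versus Parental, 24 were called, 16 higher and 8 lower, beside 42.4% of all regions (19% higher and 23.4% lower). In M2 versus Parental, 37 were called, 17 higher and 20 lower, beside 67% of all regions (32.1% higher and 34.9% lower). In M2 versus M1, 34 were called, 15 higher and 19 lower, beside 56.3% of all regions (27.2% higher and 29.1% lower). The share of the 50 regions called was 48% in M1, 74% in M2 and 68% between the M clones, so the number of calls stood near the background, and the description turns on which regions moved and how far. The median log2 change of the 50 regions was 0.20 in M1 and 0.18 in M2 versus Parental, beside 0.01 and -0.01 over all regions.

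The other clones differed from Parental at few of the regions. In EM2 versus Parental, 5 were called, 2 higher and 3 lower, beside 9.19% of all regions (3.02% higher and 6.17% lower). In E versus Parental, 9 were called, 7 higher and 2 lower, beside 11.6% of all regions (5.27% higher and 6.31% lower). Without E replicate 1 this count was 5, 3 higher and 2 lower, beside 5.16% of all regions. The count in E also fell without either Parental library, as did the number of calls over all regions. For EM2 the count fell when any one of the EM2 or Parental libraries was left out, as did the number of calls over all regions. In EM1 and EM3 versus Parental edgeR called none of the 50, beside 0.628% of all regions in EM1 (0.341% higher and 0.287% lower) and 3.11% in EM3 (1.85% higher and 1.26% lower). At an unadjusted p under 0.05, 2 of the 50 passed in EM1 and 9 in EM3, beside 10.3% and 16.7% of all regions. DESeq2 called 1 of the 50 in EM1 and 3 in EM3, beside 1197 and 3643 calls over all regions.

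In the MMP cluster on chromosome 11, more regions fell than rose in both M clones. Of the 19 regions, 2 rose and 6 fell in M1 versus Parental, and 3 rose and 10 fell in M2. The share called was 42.1% in M1 and 68.4% in M2, close to the 42.4% and 67% of all regions. Over all regions, too, more fell than rose, with 19% higher and 23.4% lower in M1, and 32.1% higher and 34.9% lower in M2. In M1, fewer falls in the cluster were called when any one of the M1 or Parental libraries was left out. In M2 versus M1, 5 were higher and 8 lower. In EM2 2 rose and 2 fell, and in E 1 rose and 1 fell.

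MMP10 encodes stromelysin-2, a secreted enzyme that cuts matrix proteoglycans and activates other MMPs. Its single region (chromosome 11, 102783693 to 102784180, 3.1 kb upstream of the start) had 0.638 and 0.793 CPM in M1, 0.115 and 0.153 in M2, 8.55 and 14.2 in EM1, 5.32 and 5.84 in EM2, 6.37 and 7.76 in EM3, 7.76 and 13.9 in E and 14.7 and 17.3 in Parental. Both M clones lay below every other library, and M2 lay below M1. The region fell in M1 by a log2 change of -4.44 ± 0.41 (adjusted p = 2.58e-06). M2 had 3 counts in all, against 366 in Parental, so the level was 117-fold higher in Parental (95% exact binomial interval 39.6 to 568, for counting error only; log2 change -6.76 ± 0.52, adjusted p = 2.44e-07). EM2 was also lower, by -1.52 ± 0.32 (adjusted p = 0.0109), but not without EM2 replicate 1, EM2 replicate 2 or Parental replicate 2 (adjusted p = 0.0939, 0.0524 and 0.0748). Between the M clones the change was -2.32 ± 0.71 (adjusted p = 0.0132), and leaving out M1 replicate 2, M2 replicate 1 or M2 replicate 2 took it to 0.0668, 0.0552 and 0.061. Replicate 2 was higher than replicate 1 in all 7 groups at this region. The same replicate number was higher in all groups at 16% of the 50 regions, beside 13.4% of all regions. With a block for the replicate number no call here was lost, and EM3 was newly called lower (log2 change -1.18, adjusted p = 0.00816). In the order of levels, EM2 differed from M1 and M1 from M2, while Parental, EM1, E, EM3 and EM2 each did not differ from the next at the threshold.

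MMP7 encodes matrilysin, a small secreted protease known from glandular epithelium. The region over its start (chromosome 11, 102530551 to 102530927, which reaches from inside the gene across most of the printed promoter) had 7.66 and 7.20 CPM in M1, 11.1 and 9.93 in M2, 13.9 and 10.5 in EM1, 11.3 and 10.2 in EM2, 8.05 and 7.56 in EM3, 15.3 and 11 in E and 9.88 and 13.2 in Parental. No comparison with Parental called it, and M1, the group with the lowest mean, differed from Parental by -0.64 ± 0.25 (adjusted p = 0.0584), which passed when the median change of the surrounding 10 Mb was removed (log2 change -0.81, adjusted p = 0.0232). In the test of any difference among the 7 groups this region was not called (adjusted p = 0.0583). Among the 21 pairs, M1 was lower than the groups with the highest means, EM1 (-0.71 ± 0.25, adjusted p = 0.0373) and E (-0.82 ± 0.26, adjusted p = 0.0192). The contrast with E includes E replicate 1, and no value without that library is given. In contrast to the start, the regions farther upstream fell in both M clones. The region 16.4 kb upstream (chromosome 11, 102547165 to 102547447) had 3.83 and 2.51 CPM in M1, 0.344 and 0.917 in M2, 13.3 and 9.20 in EM1, 7.55 and 7.17 in EM2, 7.93 and 6.45 in EM3, 4.37 and 3.19 in E and 11.6 and 11.7 in Parental. Its log2 change was -1.90 ± 0.35 (adjusted p = 0.000609) in M1 and -4.10 ± 0.42 (adjusted p = 2.64e-06) in M2, and M2 lay below M1 by -2.20 ± 0.44 (adjusted p = 0.000939). In E it was lower by -1.63 ± 0.35 (adjusted p = 0.0116), and without E replicate 1 by -1.87 ± 0.44 (adjusted p = 0.0319). That call in E was lost without E replicate 2 or either Parental library (adjusted p between 0.0525 and 0.0886).

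The widest of the MMP7 regions, 21.3 kb upstream (chromosome 11, 102552061 to 102553027), had 10.7 and 11.9 CPM in M1, 1.26 and 2.14 in M2, 15.6 and 21.5 in EM1, 5.47 and 15.3 in EM2, 9.61 and 16.1 in EM3, 18.7 and 35.1 in E and 30.1 and 38.7 in Parental. M2 lay far below every other library, and Parental and E replicate 2 held the highest values. The log2 change was -1.60 ± 0.43 (adjusted p = 0.00852) in M1, -4.29 ± 0.52 (adjusted p = 1.16e-05) in M2 and -1.73 ± 0.43 (adjusted p = 0.0241) in EM2. Replicate 2 was higher than replicate 1 in all 7 groups. With a block for the replicate number no call at this region was lost, and EM3 was newly called lower (log2 change -1.46, adjusted p = 0.00357). The M1 call was lost without M1 replicate 1 or Parental replicate 2 (adjusted p = 0.0545 and 0.0572). The EM2 call was lost without EM2 replicate 1 or either Parental library (adjusted p between 0.0753 and 0.176).

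MMP1, interstitial collagenase, cuts fibrillar collagens, and MMP3, stromelysin-1, cuts proteoglycans and activates other MMPs. The MMP1 region, over the higher-coordinate end of the gene (chromosome 11, 102798058 to 102798406), had 4.36 and 7.07 CPM in M1, 1.95 and 0.917 in M2, 9.35 and 7.11 in EM1, 4.16 and 5.38 in EM2, 6.72 and 6.75 in EM3, 2.79 and 3.19 in E and 4.99 and 8.99 in Parental. Both M2 libraries were the lowest of the 14, and the region fell in M2 by -2.33 ± 0.44 (adjusted p = 0.000382), with no call in M1 (-0.28 ± 0.38, adjusted p = 0.599). In E the change was -1.22 ± 0.41 (adjusted p = 0.0702), and without E replicate 1 it was -1.13 ± 0.51 (adjusted p = 0.233). M2 lay below M1 by -2.06 ± 0.44 (adjusted p = 0.00145).

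The MMP3 regions did not move together. The region over the higher-coordinate end (chromosome 11, 102843458 to 102843865) had 8.51 and 7.53 CPM in M1, 2.75 and 2.83 in M2, 2.94 and 4.67 in EM1, 6.71 and 10.1 in EM2, 4.46 and 6.25 in EM3, 2.67 and 5.05 in E and 0.907 and 3.73 in Parental. M1 and EM2 held the highest values and Parental replicate 1 the lowest. It rose in M1 by 1.77 ± 0.52 (adjusted p = 0.0137) and in EM2 by 1.84 ± 0.52 (adjusted p = 0.0409), while M2 differed from Parental by 0.26 ± 0.54 (adjusted p = 0.694). Without Parental replicate 1, neither call held (adjusted p = 0.115 in M1 and 0.265 in EM2), and the EM2 call was also lost without either EM2 library (0.0761 and 0.168). The region inside MMP3, 0.6 kb from the lower-coordinate end (chromosome 11, 102836370 to 102836600), fell in M2 to 3.76 ± 0.349 CPM, against 6.73 ± 0.799 CPM in Parental (log2 change -0.84 ± 0.30, adjusted p = 0.0256). That call was lost with loess offsets (adjusted p = 0.169) and without M2 replicate 2 (0.11) or Parental replicate 2 (0.116). The region 10.9 kb outside the lower-coordinate end (chromosome 11, 102824632 to 102824884) fell to 0.897 ± 0.837 CPM in M2, against 2.58 ± 0.189 CPM in Parental (log2 change -1.62 ± 0.59, adjusted p = 0.0262). It was not called without M2 replicate 2, where the log2 change was -0.80 (adjusted p = 0.235), or without either Parental library. The region 7.7 kb outside the other end (chromosome 11, 102851276 to 102851733) was called in no comparison with Parental and ranged from 8.98 to 21.7 CPM over the 14 libraries.

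MMP13, collagenase 3, cuts fibrillar collagens and is known from bone and from invasive breast tumours. The M clones went opposite ways at the region 17.6 kb from its lower-coordinate end (chromosome 11, 102924813 to 102925422), which had 20.3 and 18 CPM in M1, 0.344 and 0.458 in M2, 8.81 and 6.41 in EM1, 14.2 and 11.6 in EM2, 7.53 and 5.24 in EM3, 2.79 and 2.96 in E and 4.35 and 6.02 in Parental. M1 lay above and M2 below every other library, and no libraries of these clones overlapped those of Parental. The log2 change was 1.88 ± 0.28 (adjusted p = 0.000143) in M1 and -3.63 ± 0.40 (adjusted p = 5.32e-06) in M2, and M2 lay below M1 by -5.51 ± 0.39 (adjusted p = 2.54e-07). EM2 was higher by 1.31 ± 0.28 (adjusted p = 0.0116), a call that was lost without EM2 replicate 1 or Parental replicate 1 (adjusted p = 0.0954 and 0.137). Inside the gene (chromosome 11, 102950588 to 102951097) the values were 23 and 13.1 CPM in M1, 1.60 and 0.535 in M2, 11.1 and 13.2 in EM1, 18.3 and 16.3 in EM2, 13.5 and 11.3 in EM3, 8.86 and 18.8 in E and 16.5 and 15.7 in Parental. There M2 alone was called, at -4.00 ± 0.49 (adjusted p = 1.15e-05), and M1 differed from Parental by 0.14 ± 0.37 (adjusted p = 0.79). Each M2 library lay below all 12 libraries of the other groups.

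**Figure D1:**
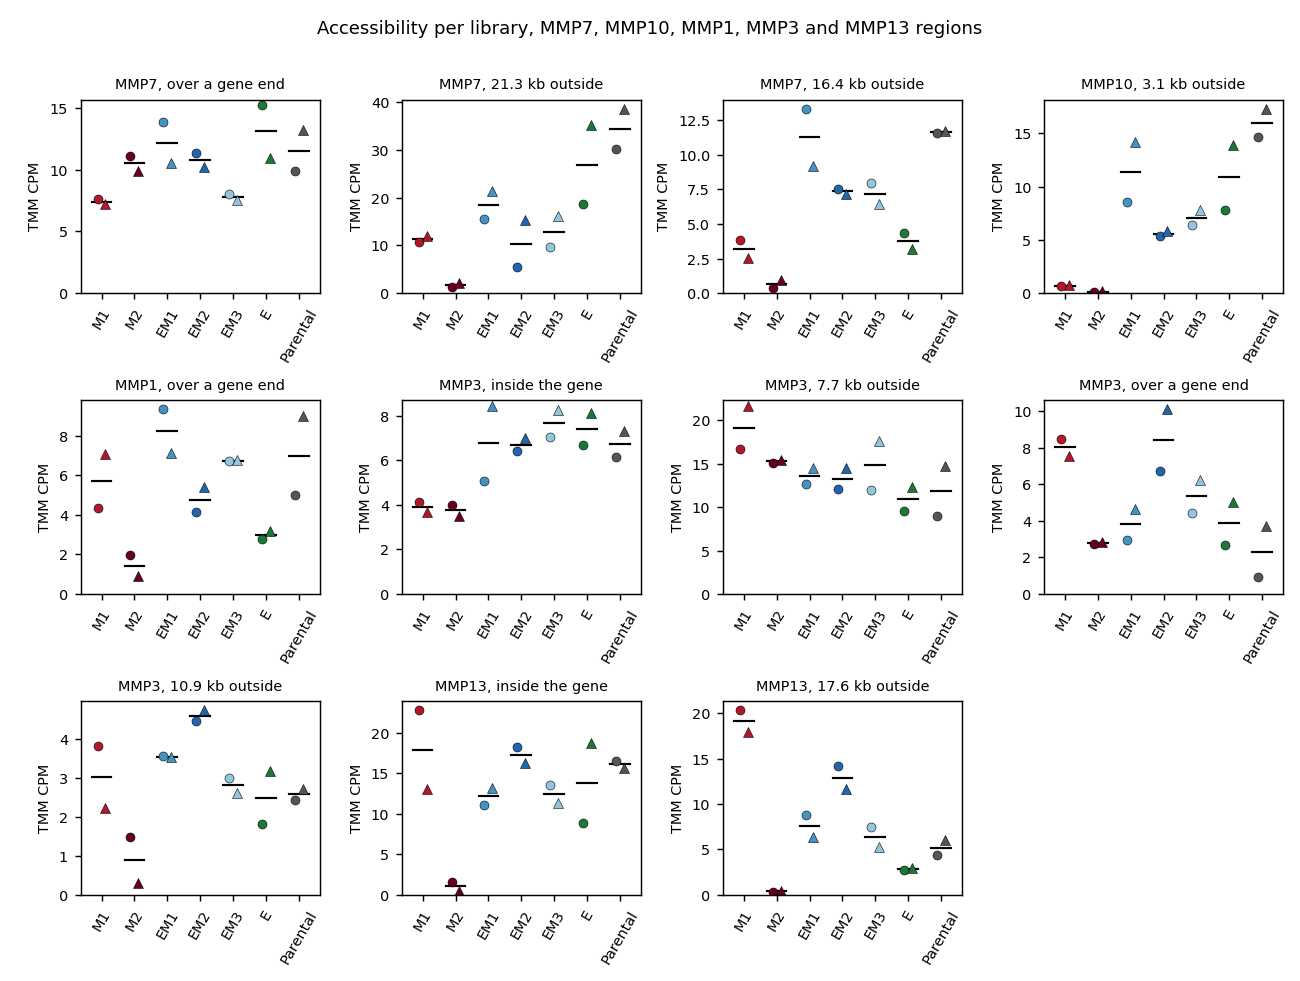
TMM-scaled CPM (y axes, each with its own scale from 0) of every named region of MMP7, MMP10, MMP1, MMP3 and MMP13 in the 7 groups (x axes); circles are replicate 1, triangles replicate 2 and bars the mean. M2 sits near 0 at the MMP10 region (0.115 and 0.153 CPM) and at the outer MMP13 region (0.344 and 0.458 CPM), where M1 holds 20.3 and 18.0 CPM.

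The remaining 8 cluster regions lay nearest to MMP20, the enamel protease of developing teeth, to MMP8, the neutrophil collagenase, and to MMP12, the macrophage elastase. The region inside MMP12 fell in M1 by -1.52 ± 0.45 (adjusted p = 0.015) and in M2 by -1.75 ± 0.46 (adjusted p = 0.00443), and the MMP8 region was called in no comparison with Parental. The MMP12 call in M1 was lost without M1 replicate 2 (adjusted p = 0.115) or either Parental library (0.0576 and 0.0502). Of the 6 MMP20 regions, 3 were higher and 1 was lower in M2, and 2 were lower in M1. Of these, 1 rise in M2 was lost without any one of the M2 or Parental libraries (adjusted p between 0.0508 and 0.2). The fall in M2 was lost without M2 replicate 1 (0.0538), and 1 fall in M1 without either M1 library or Parental replicate 2 (between 0.0756 and 0.243). The largest difference was 12.4 kb outside the higher-coordinate end of MMP20 (chromosome 11, 102637773 to 102638025), which had 0.106 and 0.132 CPM in M1, 12.6 and 7.72 in M2, 0.0890 and 0.279 in EM1, 0.0771 and 0.156 in EM2, 0.0579 and 0.101 in EM3, 4.37 and 1.32 in E and 0.0907 and 0.170 in Parental. The region was open in M2 and near 0 elsewhere except in E. M2 had 211 counts, against 3 in Parental, a level 73.5-fold higher in M2 (95% exact binomial interval 24.8 to 359). E had 48 counts, a level 21-fold higher than in Parental (6.78 to 106), with 4.37 CPM in E replicate 1 and 1.32 CPM in E replicate 2. Without E replicate 1, the log2 change in E was 3.23 ± 0.82 (adjusted p = 0.0409). The call in E was lost without Parental replicate 1 or Parental replicate 2 (adjusted p = 0.0633 and 0.0686). The part of the M2-like signal of E replicate 1 in this was not tested beyond that value.

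**Figure D2:**
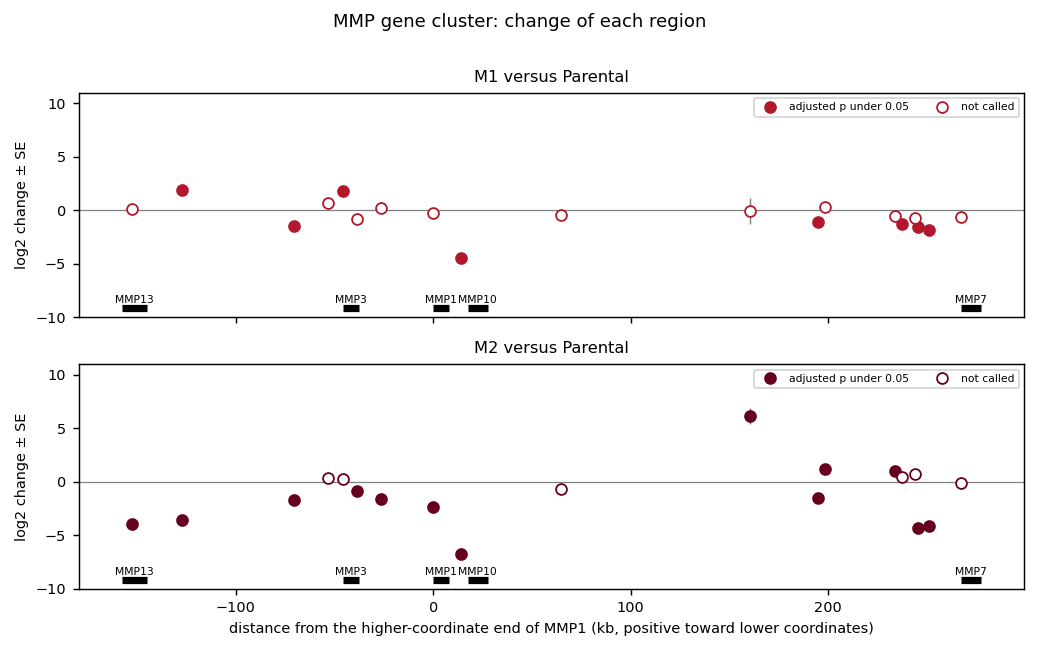
Log2 change ± SE (y axis) of each of the 19 regions of the MMP cluster in M1 and in M2 versus Parental, by distance from the higher-coordinate end of MMP1 in kb (x axis, positive toward lower coordinates); filled points have an adjusted p under 0.05, open points do not, and black bars mark 5 of the genes. The lowest points are the MMP10 region, at -4.44 in M1 and -6.76 in M2, and the highest is the region 12.4 kb outside MMP20, at 6.16 in M2.

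The surroundings of the cluster did not share its direction in M2. The 19 cluster regions had a median log2 change of -0.55 in M1 and -0.84 in M2, while the 49 other regions within 1 Mb had medians of 0.32 and 0.98. Of those 49 neighbours, 7 were higher and 4 lower in M1, and 28 were higher and 9 lower in M2. With the median of the 10 Mb window removed from each library, 10 cluster regions were called in M1, 2 higher and 8 lower, and 14 in M2, 4 higher and 10 lower.

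MMP14 encodes a membrane-bound metalloproteinase that cuts collagen at the cell surface and is known to activate the MMP2 proenzyme. Its start was more open in M1 and nearly closed in M2. The region over the start (chromosome 14, 22836322 to 22836701), which covers the whole MMP14 promoter window, had 10.5 and 10.6 CPM in M1, 0.229 and 0.306 in M2, 3.47 and 5.79 in EM1, 7.32 and 7.72 in EM2, 3.94 and 4.33 in EM3, 5.22 and 6.92 in E and 3.27 and 4.33 in Parental. M1 lay above and M2 below every library of the other groups. The log2 change was 1.48 ± 0.31 (adjusted p = 0.00181) in M1 and -3.75 ± 0.46 (adjusted p = 1.18e-05) in M2, and M2 lay below M1 by -5.22 ± 0.44 (adjusted p = 9.88e-07). EM2 came next to M1, at 0.98 ± 0.31 (adjusted p = 0.07), and E was at 0.68 ± 0.32 (adjusted p = 0.195), or 0.86 ± 0.37 (adjusted p = 0.205) without E replicate 1. Replicate 2 was higher than replicate 1 in all 7 groups here too. With a block for the replicate number no call at this region was lost, and EM2 was newly called higher (adjusted p = 0.0204). The region inside the gene, 0.6 kb from the start (chromosome 14, 22837214 to 22837445), fell in M2 to 1.74 ± 1.32 CPM, against 6.28 ± 0.605 CPM in Parental (log2 change -1.78 ± 0.43, adjusted p = 0.00254), and in M1 it was at 6.92 ± 0.309 CPM (0.14 ± 0.39, adjusted p = 0.807).

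Beyond the other end of MMP14, 1 region was open mainly in M1. The region 3.6 kb past the gene (chromosome 14, 22851386 to 22851801) had 26.6 and 39.8 CPM in M1, 2.18 and 1.76 in M2, 4.01 and 1.53 in EM1, 8.48 and 4.44 in EM2, 7.53 and 1.31 in EM3, 2.55 and 1.21 in E and 2.63 and 2.54 in Parental. It rose in M1 by 3.68 ± 0.65 (adjusted p = 0.000464), and M2 differed from Parental by -0.41 ± 0.71 (adjusted p = 0.627) and from M1 by -4.09 ± 0.67 (adjusted p = 0.000223). In EM2 and EM3, replicate 1 (8.48 and 7.53 CPM) stood above replicate 2 (4.44 and 1.31 CPM), and neither clone was called. The next region (chromosome 14, 22852917 to 22853370), 5.2 kb past the gene, was called in no comparison and ranged from 10.4 to 18.8 CPM. Upstream, the region 11.4 kb before the start (chromosome 14, 22824912 to 22825221) fell in M2 to 6.47 ± 1.22 CPM, against 12 ± 1.92 CPM in Parental (log2 change -0.88 ± 0.27, adjusted p = 0.0123). The region 6.2 kb before the start overlaps MRPL52, a mitochondrial ribosomal protein gene, and rose in M2 by 0.67 ± 0.27 (adjusted p = 0.0421). That rise was not called with library totals (adjusted p = 0.0838), nor without M2 replicate 2 (0.351) or either Parental library (0.184 and 0.0825). The fall 11.4 kb before the start was lost with loess offsets (0.076) and without M2 replicate 1 or Parental replicate 2 (0.0808 and 0.0817). The share of the 6 MMP14 regions called was 33.3% in M1 and 66.7% in M2, beside 42.4% and 67% of all regions. The count in M2 fell without Parental replicate 2. Among the 65 other regions within 1 Mb, 7 were higher and 9 lower in M1, and 26 were higher and 21 lower in M2. With the window median removed, 3 of the 6 regions were called in M2, all lower.

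MMP2 encodes gelatinase A, which cuts collagen of basement membranes and denatured collagen. The share of its 6 regions called in M2 was 66.7%, beside 67% of all regions (32.1% higher and 34.9% lower). Of the 6, 4 fell in M2, and none was called higher in a comparison with Parental. In M2 this count was 3 lower without Parental replicate 1, 2 lower without Parental replicate 2, and 2 lower and 1 higher without M2 replicate 1. In M2, 2 were called higher with loess offsets, and 1 with DESeq2 or with its size factors. No region lay within 1 kb of an end of MMP2. The region inside the gene 3.5 kb from its higher-coordinate end (chromosome 16, 55502853 to 55503210) had 2.66 and 1.19 CPM in M1, 0.229 and 0.382 in M2, 5.96 and 3.14 in EM1, 5.55 and 3.43 in EM2, 10.6 and 4.23 in EM3, 13.6 and 17.1 in E and 16.1 and 13.1 in Parental. E and Parental were the most open, the EM clones lay between, and the M clones were lowest. The log2 change was -2.97 ± 0.51 (adjusted p = 0.000361) in M1 and -5.47 ± 0.65 (adjusted p = 9.2e-06) in M2, and M2 lay below M1 by -2.50 ± 0.73 (adjusted p = 0.0109), a call lost without M1 replicate 1 or M2 replicate 1 (adjusted p = 0.0767 and 0.0597). EM2 was lower by -1.70 ± 0.46 (adjusted p = 0.0363), and leaving out any one of the EM2 or Parental libraries took the adjusted p to between 0.0894 and 0.194. EM1 was at -1.69 ± 0.46 (adjusted p = 0.142), EM3 at -0.95 ± 0.45 (adjusted p = 0.307) and E at 0.07 ± 0.44 (adjusted p = 0.939), or 0.23 ± 0.53 (adjusted p = 0.851) without E replicate 1. DESeq2 and the fit of only the EM1 and Parental libraries called the EM1 difference (adjusted p = 0.0481 and 0.025).

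A second region inside MMP2, 6.2 kb from the same end (chromosome 16, 55499842 to 55500460), was the one region near MMP2 that was called in E. It had 32.9 and 40.3 CPM in M1, 13.6 and 19.9 in M2, 28.2 and 21.9 in EM1, 23 and 22.4 in EM2, 24.4 and 24 in EM3, 7.52 and 9.88 in E and 26.4 and 28.5 in Parental. Both E libraries were the lowest of the 14. The log2 change in E was -1.65 ± 0.23 (adjusted p = 0.00142), or -1.47 ± 0.28 (adjusted p = 0.012) without E replicate 1. In M2 it was -0.70 ± 0.22 (adjusted p = 0.0112), and in M1, where the 2 libraries were the highest, 0.42 ± 0.21 (adjusted p = 0.132). The M2 call was lost without M2 replicate 1 or Parental replicate 2 (adjusted p = 0.103 and 0.0504).

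The most accessible region of the window, 7.6 kb outside the lower-coordinate end of MMP2 (chromosome 16, 55470464 to 55471224), had 57.5 and 22.7 CPM in M1, 6.76 and 4.28 in M2, 46.6 and 19.7 in EM1, 62.9 and 28.6 in EM2, 51.7 and 24 in EM3, 32.8 and 32 in E and 58.8 and 34.1 in Parental. Both M2 libraries lay below all the others. The log2 change in M2 was -3.10 ± 0.60 (adjusted p = 0.000508), and M1 was at -0.22 ± 0.52 (adjusted p = 0.767). Replicate 1 was higher than replicate 2 in all 7 groups, least so in E. With a block for the replicate number no call at this region was lost or gained. The neighbouring regions 13.3 and 7.1 kb outside were at 9.45 ± 1.87 and 9.18 ± 0.518 CPM in M2, against 13.8 ± 0.0967 and 6.70 ± 0.367 CPM in Parental, and only the first was called (-0.53 ± 0.22, adjusted p = 0.0452). That call was lost without M2 replicate 1 or either Parental library (adjusted p between 0.105 and 0.229), with DESeq2, its size factors, loess offsets or only the 4 libraries (between 0.0544 and 0.374). The region that overlaps LPCAT2, a lipid enzyme gene, was called in no comparison with Parental. It averaged 17.5 CPM in M1, 17.1 in M2, 11.1 in EM1, 19.5 in EM2, 12.6 in EM3, 8.74 in E and 12.4 in Parental. M1, M2 and EM2 were just over the threshold (adjusted p = 0.0583, 0.0521 and 0.0579). With loess offsets or the replicate block, these 3 clones were each called higher. With the window median removed, 4 of the 6 regions were called, 2 higher and 2 lower in M2.

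**Figure D3:**
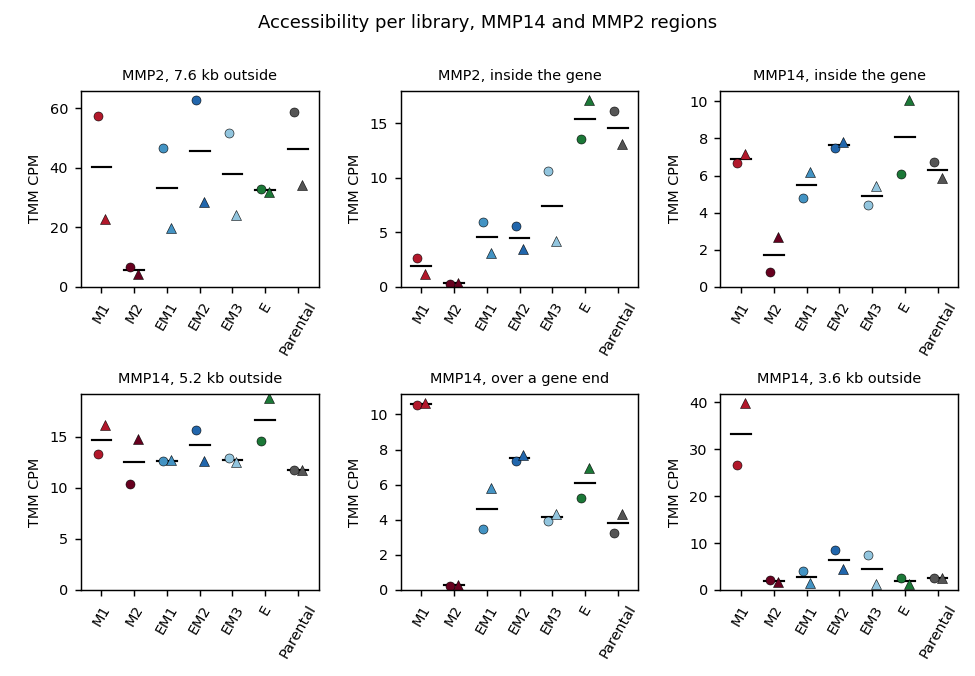
TMM-scaled CPM (y axes, each with its own scale from 0) of the named regions of MMP2 and MMP14 in the 7 groups (x axes); circles are replicate 1, triangles replicate 2 and bars the mean. At the end of MMP14 that is its start, M1 holds 10.5 and 10.6 CPM and M2 0.229 and 0.306 CPM, against 3.27 and 4.33 CPM in Parental, and at the outer MMP2 region replicate 1 lies above replicate 2 in every group.

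ADAM12 spans 376087 bp on the minus strand, and 18 of its 19 regions lay inside the gene and 1 lay 9.2 kb upstream. All 19 were called in the test of any difference, beside 78.6% of all regions. Most rose in the M clones, 12 of 19 in M1 and 13 of 19 in M2, while 1 fell in M1 and 3 fell in M2. Of all regions, 19% were higher and 23.4% lower in M1, and 32.1% higher and 34.9% lower in M2. The median log2 change over the 19 regions was 0.97 in M1 and 1.30 in M2, and 0.01 and -0.01 over all regions. No region lay within 1 kb of the start, and the nearest, 1.2 kb inside the gene, was called in no comparison with Parental. The 47 other regions within 1 Mb had medians of -0.15 in M1 and -0.16 in M2, with 5 higher and 17 lower in M1 and 14 higher and 20 lower in M2. With the window median removed, 13 regions were called in M1, 11 higher and 2 lower, and 15 in M2, 11 higher and 4 lower.

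A pair of regions near the start of ADAM12 was open in the M clones and near 0 in the EM clones and Parental. The region 14.2 kb inside (chromosome 10, 126373844 to 126374314) had 19.2 and 10.2 CPM in M1, 8.93 and 8.56 in M2, 0.712 and 0.349 in EM1, 0.463 and 0.468 in EM2, 0.637 and 0.605 in EM3, 1.94 and 2.2 in E and 0.635 and 0.339 in Parental. The log2 change was 4.89 ± 0.48 (adjusted p = 4.22e-06) in M1 and 4.15 ± 0.48 (adjusted p = 7.31e-06) in M2, and E came next at 2.08 ± 0.52 (adjusted p = 0.0229), or 2.16 ± 0.61 (adjusted p = 0.0612) without E replicate 1. Both E libraries, at 1.94 and 2.2 CPM, lay above every EM and Parental library. The region 3.9 kb inside (chromosome 10, 126384358 to 126384613) had 5.74 and 11.1 CPM in M1, 11.1 and 16.3 in M2, 0.979 and 0.558 in EM1, 0.154 and 0.390 in EM2, 0.753 and 0.605 in EM3, 2.43 and 1.54 in E and 0.0907 and 0.594 in Parental. Its log2 change was 4.57 ± 0.63 (adjusted p = 6.86e-05) in M1, 5.26 ± 0.63 (adjusted p = 1.05e-05) in M2 and 2.46 ± 0.69 (adjusted p = 0.0375) in E, or 2.11 ± 0.83 (adjusted p = 0.17) without E replicate 1. M2 and M1 did not differ at the threshold at either region. Another region between them, 11.2 kb inside (chromosome 10, 126376862 to 126377302), held 7.13 ± 2.24 CPM in M1 and 16.9 ± 1.76 CPM in M2, against 11.8 ± 2.17 CPM in Parental, with no call against Parental and a call between the M clones (1.26 ± 0.30, adjusted p = 0.00323).

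The most accessible ADAM12 region by mean log2 CPM, 37.4 kb inside (chromosome 10, 126350340 to 126351054), was open in every group and more so in the M clones and E. It had 44 and 47.7 CPM in M1, 61.6 and 61.5 in M2, 36.5 and 26.1 in EM1, 23.1 and 25.6 in EM2, 35.8 and 35.4 in EM3, 41.5 and 40.0 in E and 25 and 24.9 in Parental. The log2 change was 0.88 ± 0.16 (adjusted p = 0.00058) in M1, 1.30 ± 0.16 (adjusted p = 1.26e-05) in M2 and 0.70 ± 0.16 (adjusted p = 0.0153) in E. Without E replicate 1 the change in E was 0.68 ± 0.20 (adjusted p = 0.0668). Further regions that rose in both M clones and held 1.77 CPM or more in every library lay 9.2 kb upstream and 134.4, 140.5, 160.3, 188.8, 253.7 and 297.1 kb inside. Their log2 changes ran from 0.64 to 1.91 in M1 and from 0.66 to 2.67 in M2. At the region 297.1 kb inside, the M1 call was lost without M1 replicate 2 or either Parental library (adjusted p between 0.0815 and 0.589), and the M2 call without any one of the M2 or Parental libraries (between 0.0533 and 0.172). The M2 call at 134.4 kb was lost without M2 replicate 2 or Parental replicate 2 (0.0879 and 0.105), and the M1 call at 188.8 kb without M1 replicate 2 (0.0656). The region 325.6 kb inside was called in M2 and not in M1 (0.98 ± 0.20, adjusted p = 0.000795), and the one 374.5 kb inside, 1.1 kb from the other end of the gene, was called against Parental in no clone. The largest of these in M2 was 253.7 kb inside (chromosome 10, 126134253 to 126134734), with 11.5 and 11.4 CPM in M1, 16.6 and 24.1 in M2, 1.87 and 3.14 in EM1, 1.77 and 2.96 in EM2, 2.90 and 2.92 in EM3, 4.73 and 13.4 in E and 2.81 and 3.56 in Parental and a log2 change of 2.67 ± 0.44 (adjusted p = 0.000145).

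Other ADAM12 regions were open in M2 and near 0 in the other groups. The region 327.5 kb inside (chromosome 10, 126060716 to 126060990) had 0.425 and 1.72 CPM in M1, 19.5 and 17.9 in M2, 0.0890 and 0.209 in EM1, 0.617 and 0.0779 in EM2, 0.463 and 0.403 in EM3, 3.52 and 0.988 in E and 0.272 and 0.255 in Parental. The region 145.2 kb inside (chromosome 10, 126242918 to 126243229) had 0.213 and 0.396 CPM in M1, 22.2 and 19.4 in M2, 0.534 and 0 in EM1, 0.154 and 0.234 in EM2, 0.0579 and 0.101 in EM3, 4.85 and 0.439 in E and 0.544 and 0.255 in Parental. Beside M2, E replicate 1 held the highest value at both, 3.52 and 4.85 CPM, against 0.988 and 0.439 CPM in E replicate 2. The log2 change in M2 was 6.09 ± 0.80 (adjusted p = 2.16e-05) at the first and 5.68 ± 0.92 (adjusted p = 0.00012) at the second, and M2 exceeded M1 by 4.02 ± 0.66 (adjusted p = 0.000218) and 5.97 ± 0.94 (adjusted p = 0.000155). At the first, M1 was at 2.07 ± 0.89 (adjusted p = 0.0794), and E was called at 3.03 ± 0.86 (adjusted p = 0.0389) but, without E replicate 1, was at 1.87 ± 0.98 (adjusted p = 0.308).

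The 3 ADAM12 regions that fell in M2 did so to near 0. The region 118.0 kb inside (chromosome 10, 126270092 to 126270500) had 26.8 and 29.3 CPM in M1, 0.115 and 0.382 in M2, 17.2 and 12.2 in EM1, 13.3 and 15.7 in EM2, 19.2 and 14.8 in EM3, 8.25 and 18.7 in E and 14 and 11.9 in Parental. It rose in M1 by 1.12 ± 0.33 (adjusted p = 0.0145) and fell in M2 by -5.51 ± 0.53 (adjusted p = 1.58e-06), and M2 lay below M1 by -6.63 ± 0.52 (adjusted p = 5.77e-07). The M1 call was lost without M1 replicate 2 or either Parental library (adjusted p between 0.0524 and 0.0931). The region 268.6 kb inside (chromosome 10, 126119674 to 126119914) also moved in opposite directions, with 6.17 and 6.94 CPM in M1, 0.229 and 0.153 in M2, 2.40 and 2.09 in EM1, 3.31 and 3.90 in EM2, 2.26 and 1.81 in EM3, 1.82 and 1.32 in E and 2.36 and 1.19 in Parental and log2 changes of 1.89 ± 0.41 (adjusted p = 0.0022) in M1 and -3.19 ± 0.60 (adjusted p = 0.000418) in M2. The region 183.7 kb inside (chromosome 10, 126204347 to 126204741) fell in both M clones, to 5.09 ± 0.471 CPM in M1 and 0.325 ± 0.297 CPM in M2, against 11.5 ± 0.388 CPM in Parental. Its log2 change was -1.18 ± 0.37 (adjusted p = 0.021) in M1 and -4.96 ± 0.53 (adjusted p = 3.56e-06) in M2. The M1 call was lost without any one of the M1 or Parental libraries (adjusted p between 0.0627 and 0.108).

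**Figure D4:**
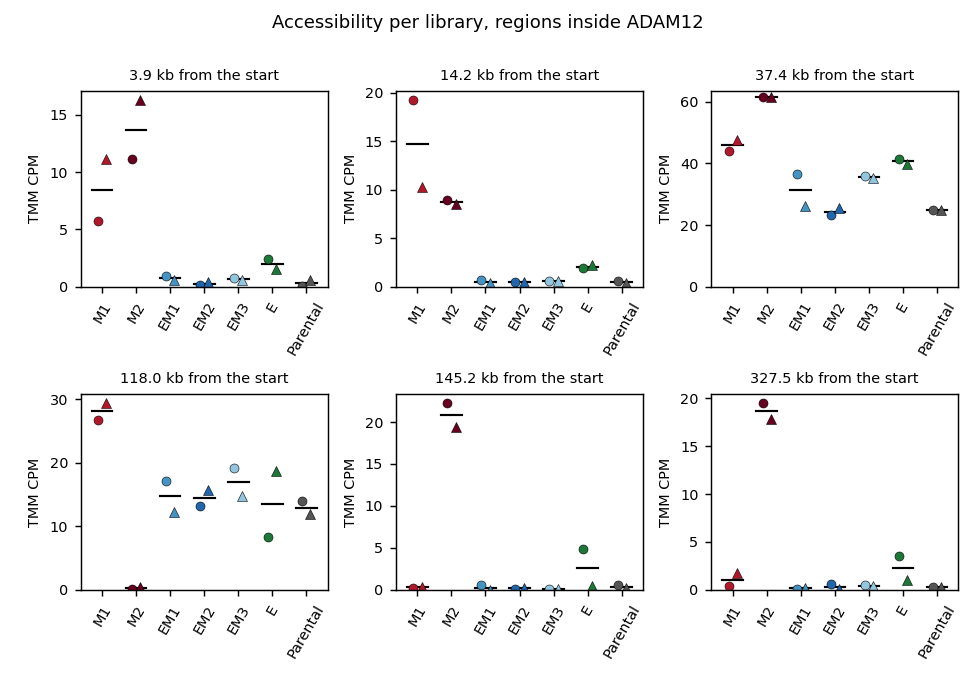
TMM-scaled CPM (y axes, each with its own scale from 0) of 6 regions inside ADAM12 in the 7 groups (x axes), named by their distance from the start; circles are replicate 1, triangles replicate 2 and bars the mean. The regions 3.9 and 14.2 kb inside are open in M1 and M2, those 145.2 and 327.5 kb inside in M2 with a lower value in E replicate 1, and the region 118.0 kb inside is near 0 in M2 (0.115 and 0.382 CPM) and highest in M1 (26.8 and 29.3 CPM).

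In E versus Parental, 5.27% of all regions were called higher and 6.31% lower. ADAM12 held 6 of the 9 calls in this comparison, all higher. Those regions lay 3.9, 14.2, 37.4, 140.5, 253.7 and 327.5 kb inside. The 194 other regions of the same 10 Mb window had a median log2 change of 0.50 in E, and of the 47 regions within 1 Mb, 13 were higher and none lower. With the window median removed, none of the 6 was called, and none was called without Parental replicate 1 or without Parental replicate 2. With only the E and Parental libraries fitted, 1 was called. Over all regions, 5541 were called with the window median removed and 4447 with only these libraries, against 7610 in the main fit. Without E replicate 1, 2 of the 19 were called, at 253.7 kb (2.07 ± 0.38, adjusted p = 0.0107) and 9.2 kb upstream (1.07 ± 0.20, adjusted p = 0.0115), the second of which was not called with it. The part of the broad shift and of E replicate 1 in these calls was not tested beyond these values.

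**Figure D5:**
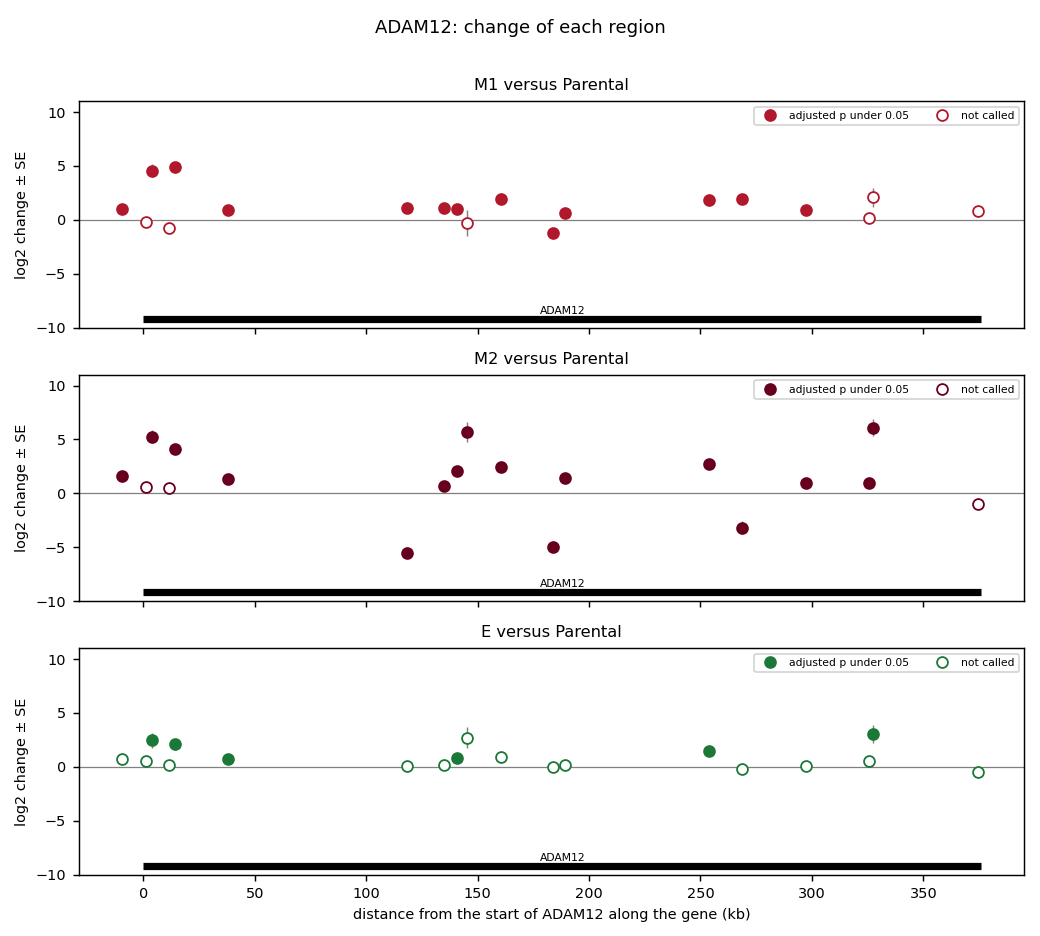
Log2 change ± SE (y axis) of each of the 19 ADAM12 regions in M1, M2 and E versus Parental, by distance from the start of the gene in kb (x axis); filled points have an adjusted p under 0.05, open points do not, and the black bar is the gene. Most points lie above 0 in M1 and M2, and the 3 lowest points in M2, at -5.51, -4.96 and -3.19, lie 118.0, 183.7 and 268.6 kb from the start.

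Summed over its regions, ADAM12 held 283 and 315 CPM in M1, 388 and 414 in M2, 204 and 191 in EM1, 158 and 177 in EM2, 218 and 213 in EM3, 217 and 242 in E and 169 and 160 in Parental. The MMP cluster held 162 and 146 CPM in M1, 140 and 153 in M2, 170 and 195 in EM1, 152 and 175 in EM2, 142 and 162 in EM3, 154 and 210 in E and 190 and 227 in Parental. MMP14 held 78.7 and 101 CPM in M1, 33.4 and 48.1 in M2, 48.7 and 53.1 in EM1, 60.7 and 59.4 in EM2, 52.1 and 50.3 in EM3, 48 and 66.8 in E and 45.3 and 49.7 in Parental. MMP2 held 132 and 104 CPM in M1, 53.5 and 63.3 in M2, 112 and 76.8 in EM1, 130 and 96.4 in EM2, 117 and 85.1 in EM3, 80.6 and 86.4 in E and 133 and 109 in Parental. The M2 libraries were the highest of the 14 in the ADAM12 sum and the lowest in the MMP2 sum, and the M1 libraries were the highest in the MMP14 sum. In these sums the most accessible regions weigh most.

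The inhibitors and partners of these proteases were counted at regions whose nearest gene end lay within 50 kb. Over all regions tested, 19% were higher and 23.4% lower in M1, and 32.1% higher and 34.9% lower in M2. Against these shares the counts of each list are a description only. The inhibitor genes TIMP1, TIMP2, TIMP3, TIMP4 and RECK, whose products block MMPs, had 14 regions. In M1 versus Parental 5 were higher and none lower, and in M2 versus Parental 10 were higher and 1 lower. Their median log2 change was 0.64 in M1 and 1.19 in M2. Some of these rises were no longer called when single libraries were left out, at TIMP2 and TIMP4 in M1 and at RECK in M2. Removal of the window median also lost RECK calls in M2 (adjusted p = 0.125 and 0.0831) and a small TIMP4 rise in M1 (0.125). A region 8533 bp from TIMP4 averaged 28.0 CPM in M1 and 30.3 CPM in M2, against 1.14 CPM in Parental (log2 change 4.60 ± 0.64 in M1 and 4.72 ± 0.64 in M2, edgeR adjusted p = 7.5e-05 and 3e-05). The region over an end of TIMP4 was the one that fell in M2, to 0.592 CPM, against 16.4 CPM in Parental (log2 change -4.96 ± 0.51, adjusted p = 2.86e-06). The region over an end of TIMP1 averaged 22.7 CPM in M2 and 14.1 CPM in Parental (log2 change 0.69 ± 0.23, adjusted p = 0.0158). The TIMP1 call was lost without M2 replicate 2 or Parental replicate 1 (adjusted p = 0.155 and 0.125) and with the window median removed (0.575).

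The plasminogen system, whose protease plasmin activates several MMPs, was counted at 24 regions of PLAU, PLAUR, PLAT, SERPINE2 and SERPINB2. In M1 5 were higher and 4 lower, in M2 9 were higher and 8 lower, and in E 2 were higher and none lower, or 1 higher and 0 lower without E replicate 1. The median log2 change was 0.22 in M1 and -0.13 in M2. The 17 of 24 called in M2 stood near the 67% of all regions. The region 214 bp from an end of PLAU, which encodes urokinase, rose to 28.9 CPM in M1 and 31.3 CPM in M2, against 9.31 CPM in Parental (log2 change 1.63 ± 0.23 and 1.74 ± 0.23, adjusted p = 7.88e-05 and 2.33e-05).

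The other MMP genes had 20 regions outside the windows, of which 1 was higher and 5 lower in M1, and 6 were higher and 7 lower in M2. At MMP9, gelatinase B, the region 3623 bp from an end averaged 10.6 CPM in M1 and 0.516 CPM in M2, against 20.4 CPM in Parental (log2 change -0.94 ± 0.27 and -5.31 ± 0.38, adjusted p = 0.0116 and 1.19e-07). The MMP9 call in M1 was lost without M1 replicate 1 or Parental replicate 2 (adjusted p = 0.0903 and 0.0679). At MMP19 the region 4680 bp from an end rose to 42.3 CPM in M1 and 55.6 CPM in M2, against 3.79 CPM in Parental (log2 change 3.47 ± 0.43 and 3.87 ± 0.44, adjusted p = 3.04e-05 and 6.44e-06). Of 24 regions at other ADAM genes, 3 were higher and 5 lower in M1, and 6 were higher and 10 lower in M2. Of 37 regions at ADAMTS genes, which encode secreted relatives of the ADAM proteases, 17 were higher and 2 lower in M1. In M2 17 of them were higher and 5 lower. In EM2 7 were higher and none lower, beside 3.02% higher and 6.17% lower over all regions. Of 76 regions at 11 genes known to regulate MMP genes (AP-1 subunits, ETS factors, RUNX2 and BSG), 17 were higher and 20 lower in M1, and 32 were higher and 16 lower in M2. At FOS, an AP-1 subunit, the region 23968 bp away averaged 1.09 CPM in M1 and 3.04 CPM in M2, against 29.1 CPM in Parental (log2 change -4.80 ± 0.27 and -3.28 ± 0.24, adjusted p = 1.06e-07 and 1.52e-07).

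The regions elsewhere in the genome whose levels most resembled those of the 8 genes were found by Pearson's r of log2 CPM over the 14 libraries, which fall into 7 groups and share depth and scaling. The MMP10 region was most like regions within 10 kb of SOX5 (r = 0.991), GRHL2 (0.989) and KRT5 (0.988). The outer MMP13 region was most like regions at RORB (0.988), TSPAN5 (0.983) and FHDC1 (0.983), and the MMP14 start like regions at LOC124904228 (0.982), FBN2 (0.979) and HENMT1 (0.975). The ADAM12 region 14.2 kb inside resembled regions at GRPR (0.976), GSTO2 (0.966) and KLF13 (0.963), and the MMP2 region 3.5 kb from the end those at FAM53B (0.972), KCTD17 (0.965) and IL24 (0.963). For MMP7 the highest was SCN4B (0.973), for MMP1 SLC6A12 (0.965) and for MMP3 RMDN3 (0.885). These values are descriptions.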

How the data were processed

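ATAC-seq was analysed from raw counts per consensus region, as the authors deposited them for 14 libraries, and no other values were used. Per the submitters' processing notes, hg38 was the build, and the tools named are bcl2fastq (2.20.0.422), cutadapt (1.9.1), Bowtie2 (version 2.2.6), Picard, MACS2 (version 2.1.1), featureCounts and deepTools. Their order, their settings, the merging of regions and any shift of cut sites are not given in the sources used here. Of the 7 peak lists, 6 are filed under a sample of another clone than they name, so the lists and the interval file were not used.

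After TMM scaling, edgeR 4.0.16 (R 4.3.3) fitted a mean for each of the 7 groups with one shared estimate of the spread (biological coefficient of variation 0.208), and quasi-likelihood F tests gave 7 comparisons, any difference and, for the order of levels, all 21 pairs. A minimum count of 10 (filterByExpr) left out 3 regions of 65774. Benjamini-Hochberg adjustment ran over 65771 regions, with calls under 0.05. The fit was tested on simulated data, and log2 CPM had a prior count of 2. Intervals for low counts cover counting error only.

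Genes and starts come from RefSeq tables of GRCh38.p14, which held all 8 genes and the promoters, hence the strand, of 4. Chromosome 11 regions went to the nearest gene. Named per gene are the region within 1 kb of the start or an end, the most accessible, the one with the smallest p for any difference, and those with the largest called rise and fall in M1 or M2. Other regions given with values, those at MMP20, MMP12 and partner genes included, were chosen after their values were seen. The members and all lists were chosen with earlier results of these data known, and no list was tested as a set. A gene of the plasminogen list is not reported here and is left out of its counts.

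Other settings were library totals, size factors of DESeq2 and loess offsets in place of TMM (limma 3.58.1 with edgeR), no filter, DESeq2 1.42.0 as the test, calls at a log2 change of 1 or more, a block for the replicate number, fits of 4 libraries, subtraction of the median of 10 Mb windows that hold 20 or more regions, and each library left out.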

Additional observations from a re-analysis of the deposited data

Results flagged for a closer look

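Of the 50 regions, 4 were called in opposite directions in the M clones against Parental and differed between M2 and M1 in edgeR's test of that difference, which is what marked them. How many of all regions meet this rule was not counted. Of all regions, 42.4% were called in M1 and 67% in M2 versus Parental, and 56.3% between the M clones. Each of the 4 regions had both M1 libraries above and both M2 libraries below the Parental libraries. Between M2 and M1 the log2 change was -5.51 at the MMP13 region 17.6 kb from the gene, -6.63 at the ADAM12 region 118.0 kb inside the gene, -5.07 at the ADAM12 region 268.6 kb inside and -5.22 at the start of MMP14. In M1 versus Parental the 4 changes were 1.88, 1.12, 1.89 and 1.48 in that order, and in M2 versus Parental -3.63, -5.51, -3.19 and -3.75. The M1 call at the ADAM12 region 118.0 kb inside was lost without M1 replicate 2 or either Parental library. Groups of 2 libraries are too small for a test of single libraries that stand apart.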

How the results depend on the processing

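Counts of the 50 regions called were recomputed under 9 other settings and with each library left out. The counts for M1 versus Parental, M2 versus Parental, M2 versus M1 and the test of any difference stayed within 1.5 times the reported count under each of these. With a library left out, M1 versus Parental gave 18 to 24, M2 versus Parental 29 to 35, M2 versus M1 25 to 29 and the test of any difference 35 to 45.

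The small counts moved. For EM1 versus Parental (0), the replicate block, only the 4 libraries and DESeq2 each gave 1. For EM3 versus Parental (0), loess offsets gave 2, and the replicate block, only the 4 libraries and DESeq2 each gave 3. Leaving out E replicate 1, which is in neither group, gave 2 for EM3. For EM2 versus Parental (5), the replicate block gave 8, and leaving out a library gave 0 to 2. For E versus Parental (9), removal of the window median gave 3, only the 4 libraries gave 4, and leaving out a library gave 1 to 8. It gave 5 without E replicate 1 and 1 without either Parental library. The number of calls over all regions moved as well. For EM2 versus Parental it fell whenever an EM2 or Parental library was left out. For E versus Parental it fell without E replicate 1 or either Parental library and rose without E replicate 2. The cause of these moves was not tested, and settings that leave libraries out also have fewer of them.

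Same-numbered libraries of the groups correlated in their deviations at 0.0232 to 0.59 (median 0.272) in 21 pairs of groups, positive in all and over 0.1 in 19, which is a hint from the data that same-numbered libraries share an effect. The labels do not state a pairing and 2 pairs, both with E, were under 0.1, so the block was kept as an alternative. With the replicate block the counts were 29, 40, 1, 8, 3 and 12 for M1, M2, EM1, EM2, EM3 and E versus Parental. They were 36 for M2 versus M1 and 46 for any difference. Over all regions the block gave 32721, 47638, 1601, 10811, 5482 and 13107 calls for the clones versus Parental in that order. The main fit gave 27879, 44093, 413, 6043, 2047 and 7610. For M2 versus M1 the block gave 41447 calls over all regions, against 37022 in the main fit.

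For the 21 named regions, 2029 recomputed log2 changes gave 1929 on the same side of the threshold with the same direction, 67 no longer called (34 higher and 33 lower), 33 newly called (11 higher and 22 lower) and 0 of the opposite sign with a call. The median log2 change of all regions shifted by -0.11 (M2 versus Parental) and -0.15 (M2 versus M1) when scaled by totals in place of TMM, and by 0.13 (M2 versus Parental) with loess offsets. Where a library was left out, its lone partner was taken to vary as much as the other groups do. M2 held 3 to 9 counts over both libraries at the 7 regions lowest in it, which limits the precision of the largest falls.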
